A study of Mus musculus with 6 samples.

Results

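Fibroblast growth factors (FGFs) and their receptors were followed in stromal cells sorted from mouse wounds and from mouse dermis. The 10 genes described are 6 members of the ligand family (Fgf2, Fgf7, Fgf9, Fgf10, Fgf13 and Fgf18) and the 4 receptor tyrosine kinases (Fgfr1, Fgfr2, Fgfr3 and Fgfr4). They were found by their Entrez gene identifiers in the authors' table and through the probes that the table pairs with those identifiers. All 10 had probes on both array designs, 19 probes in all, among 23044 genes with a probe on both, and all 10 were among the 16739 genes tested.

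The mice carried a transgene in which the smooth muscle actin promoter drives green fluorescent protein, so the reporter marks cells by activity of that promoter and not by lineage. Wound SMA+++ cells had a high reporter signal and were taken 7 days after injury, and the labels call them myofibroblasts. Skin SMA+ cells had a low reporter signal and came from dermis, and the labels call them fibroblast-like. Both groups had been sorted to lack the leukocyte marker CD45 and the endothelial marker CD31. The labels give neither age nor strain, nor say whether animals were pooled. Reporter level and injury change together between the groups and cannot be told apart. In such sorted populations fewer cells of a type and less RNA per cell cannot be told apart either. Each group has 3 arrays, replicates 1 and 2 on array design 026655 and replicate 3, a number given here only as a name, on design 028005.

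The arrays had 64.4% to 72.6% of spots well above background and 0 saturated spots. Correlations across genes were 0.970 to 0.989 within a group and 0.901 to 0.923 between groups. All 6 fibroblast markers (Pdgfra, Col1a1, Col1a2, Dcn, Lum and Thy1) were well above background on every array. Whether each array stands for its own animals is not in the labels. The p-values therefore measure only how far these samples scatter, and that scatter may be technical. With 3 arrays a group, precision is limited by their number.

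In mammals most FGFs are secreted, bind heparan sulfate on the cell surface and activate the FGF receptors, which signal through adaptor proteins to the MAP kinase pathway. In skin, fibroblasts are a known source of Fgf7 and Fgf10, which act on keratinocytes through the epithelial splice form of Fgfr2. Fgf13 belongs to a branch of the family that stays inside the cell and binds voltage-gated sodium channels.

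Values below are log2 signals relative to the array's own 75th percentile, and differences are wound minus skin on the log2 scale. The test was limma on all 16739 genes with the array design as a term, and a gene was called at a Benjamini-Hochberg adjusted p under 0.05. Most member probes read higher on design 028005 in both groups, and each design has its own 75th percentile over its own probes, so wound and skin arrays are best compared within a design. By the gene-level test wound cells had more Fgf18 RNA and less RNA of Fgf2, Fgf9, Fgf10, Fgf13, Fgfr2 and Fgfr3 than skin cells. The calls of Fgf2 and Fgf9 were lost under 2 other settings each, and 1 of 2 Fgf13 probes did not pass. Fgf9 was also left untested when detection on all 6 arrays was required. Fgf7 and Fgfr1 did not pass the threshold, and the probes of Fgfr4 disagreed. By the gene-level test 7 of the 10 members were called, 6 of them lower (15.6% of all genes tested were called lower) and 1 higher (18.5% were called higher). Of all genes 34.1% were called in either direction, which is 5701 genes. That count was 3751 without skin replicate 1 and 1762 with no array design term. It held 3093 higher and 2608 lower genes, against 2600 and 2986 when scaled to detected probes and 2493 and 2711 with the same model on the authors' deposited table. The members were 1 higher and 6 lower under both of these. All 7 differed by at least 2-fold, a call that 20.2% of all genes met. The wound and skin arrays did not overlap for 6 members (16.9% of all genes). The median difference was -1.60 over the members and 0.04 over all genes tested.

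**Figure D1:**
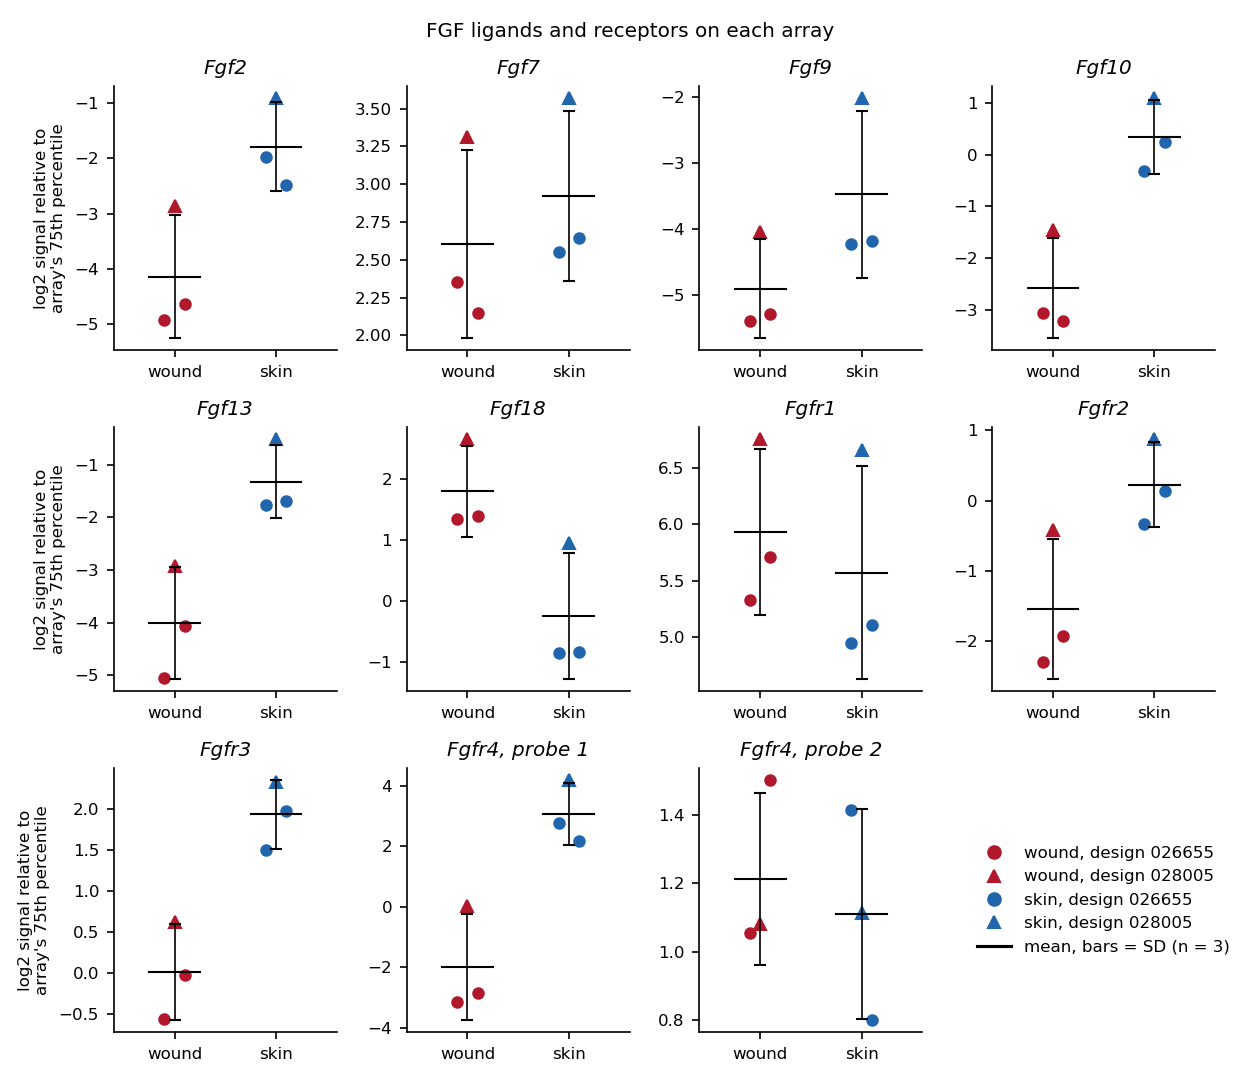
Log2 signal of each FGF ligand and receptor relative to the array's 75th percentile, by array, with wound at the left and skin at the right of each panel. Circles are arrays of design 026655, triangles arrays of design 028005, and lines with bars are the mean and SD of 3 arrays. By the probes shown, Fgf18 was higher in wound cells on both designs, Fgf2, Fgf9, Fgf10, Fgf13, Fgfr2 and Fgfr3 were lower, and the 2 Fgfr4 probes differ.

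Fgf18, a secreted ligand known for roles in skeletal growth and the hair cycle, was the only one of the 10 genes called higher in wound cells. Its brighter probe read 1.34, 1.40 and 2.65 on wound replicates 1, 2 and 3, against -0.85, -0.83 and 0.95 on skin replicates 1, 2 and 3. All wound arrays were above all skin arrays. Fgf18 rose 4.11-fold (log2 2.04, SE 0.17, 95% confidence interval 1.64 to 2.44, limma adjusted p = 0.000350), with 2.21 on design 026655 and 1.70 on design 028005. A second Fgf18 probe, fitted among all probes, gave 2.26 (SE 0.22, adjusted p = 0.000704). Of the genes tested, 3.88% had a difference at least as high as that of Fgf18. Mural cell markers were higher in the same wound arrays, with 7 of 9 called higher (18.5% of all genes). On design 026655 their summed level was 76.2 and 97.0 times the array's 75th percentile in wound cells, against 19.8 and 20.8 in skin cells. On design 028005 it was 203 times in wound cells against 45.1 in skin cells. The part of mural cell markers in the result for Fgf18 was not tested.

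Fgf10, a mesenchymal ligand of the epithelial form of Fgfr2, had the largest called decrease among the members in the gene-level fit, although 1 probe of Fgfr4, described below, was lower still. It read -3.06, -3.22 and -1.46 on wound replicates 1, 2 and 3, against -0.32, 0.24 and 1.10 on skin replicates 1, 2 and 3. The groups did not overlap. Fgf10 fell 7.56-fold (log2 -2.92, SE 0.22, 95% interval -3.44 to -2.39, limma adjusted p = 0.000263), with -3.10 on design 026655 and -2.56 on design 028005. Of all genes tested, 2.22% had a difference as low or lower.

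Fgf7, also called keratinocyte growth factor, is the close relative of Fgf10 that acts on the same receptor form. It read 2.35, 2.15 and 3.31 on wound replicates 1, 2 and 3, against 2.55, 2.65 and 3.57 on skin replicates 1, 2 and 3, and the groups overlapped. The difference of -0.32 (SE 0.15, limma adjusted p = 0.148) did not pass the threshold, and its 95% interval was -0.67 to 0.04. With quantile normalization Fgf7 stood at -0.46 and just passed (adjusted p = 0.0499). A fall of the size seen for Fgf10 lies outside that interval, although the difference between these genes was not itself tested. Markers of the dermal papilla, a follicle structure known to make both ligands, were called lower for 5 of 7 members (15.6% of all genes). The call was higher for 1, Vcan (18.5% of all genes). The papilla marker Sox2 was not well above background on any wound array and was so on all 3 skin arrays. Sox2 and Corin, both called lower, were tested only through the skin arrays, where they are high. The summed level of the list was 13.7, 13.8 and 24.5 on wound replicates 1, 2 and 3. On skin replicates 1, 2 and 3 it was 11.2, 15.7 and 29.8. This sum is linear, so bright markers weigh most. Vcan and Crabp1, which was not called, were the brightest of the list on every array. The sum therefore says little about the 5 members called lower. The part of dermal papilla markers in the results for Fgf10 and Fgf7 was not tested.

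The promoters of Fgf18 and Fgf10 are shown because these genes had the largest called increase and decrease in the gene-level fit. Each is the RefSeq window of 300 bases on build GRCm38.p6, from 250 bases before the start of the gene, printed 5′ to 3′ on the gene's strand. Capitals mark the SMAD core motif CAGAC on either strand, the TEAD motif GGAATG on either strand and the CArG box bound by serum response factor. These factors are known regulators of contractile fibroblast genes. The table held 13 windows for 9 of the 10 members.
Fgf18, chr11:33147351-33147650, minus strand: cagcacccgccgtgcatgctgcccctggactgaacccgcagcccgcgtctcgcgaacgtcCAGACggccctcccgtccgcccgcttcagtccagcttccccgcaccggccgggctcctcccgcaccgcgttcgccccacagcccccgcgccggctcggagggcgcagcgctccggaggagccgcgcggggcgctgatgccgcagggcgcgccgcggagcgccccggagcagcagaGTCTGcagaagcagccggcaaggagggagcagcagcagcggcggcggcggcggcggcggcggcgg
Fgf10, chr13:118714449-118714748, plus strand: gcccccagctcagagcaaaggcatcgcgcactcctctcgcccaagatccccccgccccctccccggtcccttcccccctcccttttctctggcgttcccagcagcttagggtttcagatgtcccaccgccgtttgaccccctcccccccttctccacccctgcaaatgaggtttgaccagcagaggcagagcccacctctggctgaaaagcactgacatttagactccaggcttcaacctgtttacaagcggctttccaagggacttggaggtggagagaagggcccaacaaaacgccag
The Fgf18 window held CAGAC at 2 places and was 78.7% G and C, and the Fgf10 window held none of the motifs and was 60.7% G and C. CAGAC was in 6 of the 13 member windows and in 49.6% of all 32851 windows in the table. No member window held a CArG box, which was found in 1.63% of all windows. A match is a description of letters and not of binding.

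Fgf2, basic FGF, leaves cells without a classical signal peptide. Its main probe read -4.93, -4.62 and -2.86 on wound replicates 1, 2 and 3, against -1.97, -2.49 and -0.91 on skin replicates 1, 2 and 3. Every wound array was below every skin array. By this probe Fgf2 fell 5.10-fold (log2 -2.35, SE 0.22, 95% interval -2.89 to -1.81, limma adjusted p = 0.000594), with -2.55 on design 026655 and -1.95 on design 028005. A second probe, designed on another transcript record, was well above background on 1 of 6 arrays, wound replicate 3, and was not tested. With the mean of both probes the difference was -0.83 and not called (adjusted p = 0.231), and the same model on the authors' deposited table gave -0.90 (adjusted p = 0.196). Normexp background correction gave -1.25 and kept the call (adjusted p = 0.000211).

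Fgf9, a secreted ligand linked in mice to follicle formation in wounds, was dim. It read -5.38, -5.28 and -4.04 on wound replicates 1, 2 and 3, against -4.22, -4.18 and -2.02 on skin replicates 1, 2 and 3. The wound arrays were lower within each design, and the pooled groups overlapped because wound replicate 3 read above skin replicates 1 and 2. The difference was -1.43 (SE 0.22, 95% interval -1.95 to -0.90, limma adjusted p = 0.00374), with -1.13 on design 026655 and -2.02 on design 028005. The probe was well above background on 2 of 3 wound arrays. It was tested only through the skin arrays, where it is high. The call was lost with normexp (-0.51, adjusted p = 0.0683) and with no array design term (adjusted p = 0.158). When detection on all 6 arrays was required, Fgf9 was not tested.

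Fgf13 was called lower by 1 of its 2 probes. The brighter probe read -5.05, -4.07 and -2.91 on wound replicates 1, 2 and 3, against -1.76, -1.68 and -0.51 on skin replicates 1, 2 and 3. These groups did not overlap, and the fall was 6.45-fold (log2 -2.69, SE 0.28, 95% interval -3.36 to -2.02, limma adjusted p = 0.000799). The other probe, designed on an Ensembl transcript, read -4.18, -4.47 and -2.53 on wound replicates 1, 2 and 3, against -3.57, -3.49 and -2.82 on skin replicates 1, 2 and 3. There the groups overlapped, and the difference of -0.44 did not pass (SE 0.26, adjusted p = 0.257 among all probes). It was -0.79 on design 026655 and 0.28 on design 028005. The gene-level value was -1.62 in the authors' deposited table, -1.56 with the mean of both probes and -1.58 with normexp, and it kept its call in each. RefSeq lists 4 separate start windows for Fgf13, and which of its transcripts each probe reads was not worked out. Schwann cell markers, genes of peripheral nerve glia, were called lower for 4 of 6 members (15.6% of all genes) in the same wound arrays. Cdh19, called lower, was not well above background on any of them. It was tested only through the skin arrays, where it is high. On design 026655 the summed level of Schwann cell markers was 1.16 and 0.798 in wound cells and 1.64 and 1.42 in skin cells. On design 028005 it was 1.82 in wound cells and 4.47 in skin cells. S100b, which was not called, was the brightest of these markers on every wound array. The part of Schwann cell markers was not tested.

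**Figure D2:**
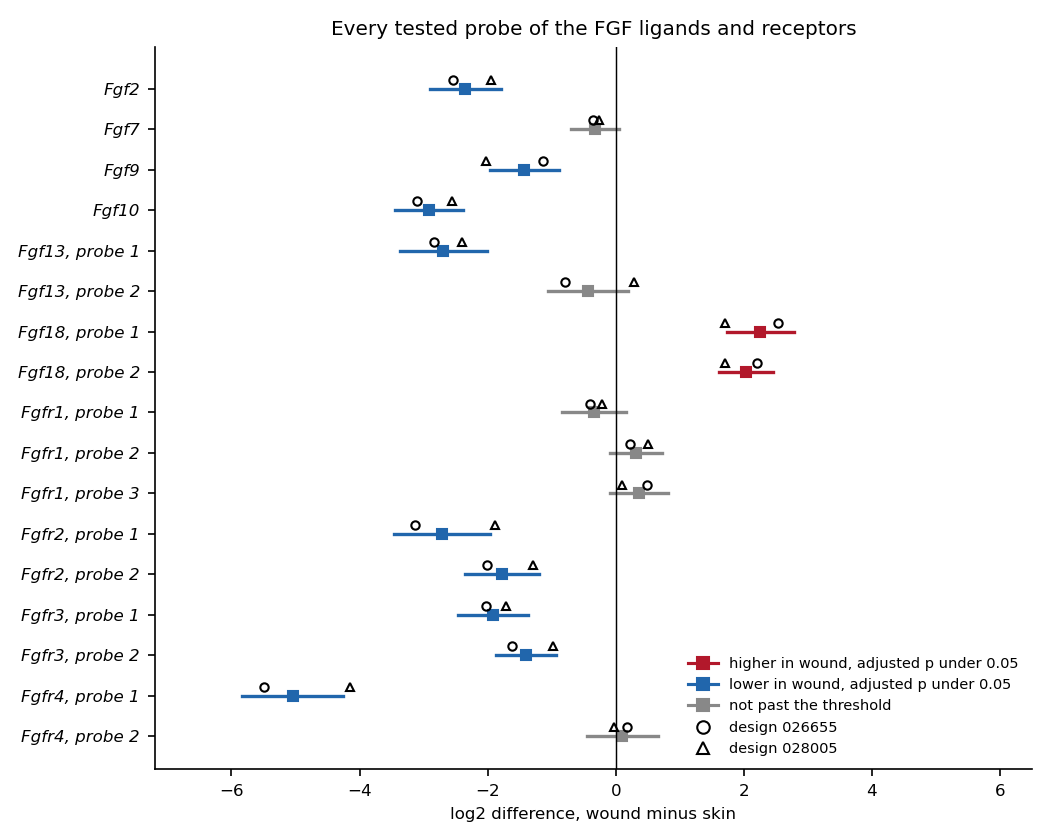
Log2 difference, wound minus skin, of all 17 tested probes of the FGF ligands and receptors, as squares with 95% confidence intervals. Open circles and triangles give the difference within designs 026655 and 028005, red and blue mark probes called higher and lower in wound cells, and grey marks the rest. Both probes of Fgf18, Fgfr2 and Fgfr3 agree in direction, whereas Fgf13 and Fgfr4 have 1 called probe and 1 that is not.

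Across the 19 member probes, 17 passed the filter on dim probes and 11 were called in the fit over all 25919 probes, 2 higher and 9 lower. In that fit 28.8% of probes were called, 15.1% higher and 13.6% lower. Since a probe could pass the filter through the group where it is bright, the count over the probes that passed is a description only.

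Among the receptors Fgfr1, which many fibroblast-type cells express, did not pass the threshold by any of its 3 probes. Its brightest probe read 5.33, 5.71 and 6.76 on wound replicates 1, 2 and 3, against 4.95, 5.11 and 6.66 on skin replicates 1, 2 and 3, with overlapping groups. The difference was 0.36 (SE 0.18, 95% interval -0.08 to 0.80, limma adjusted p = 0.176). The other probes gave 0.31 and -0.34 (adjusted p = 0.216 and 0.272 among all probes), so the sign depended on the probe.

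Fgfr2, the receptor of Fgf7 and Fgf10 in its epithelial form, fell by both of its probes. The brighter read -2.30, -1.93 and -0.41 on wound replicates 1, 2 and 3, against -0.33, 0.13 and 0.88 on skin replicates 1, 2 and 3. The groups did not overlap, with wound replicate 3 close under skin replicate 1. The fall was 3.42-fold (log2 -1.77, SE 0.24, 95% interval -2.35 to -1.20, limma adjusted p = 0.00219), with -2.02 on design 026655 and -1.29 on design 028005. The dimmer probe gave -2.72 (SE 0.31, adjusted p = 0.00134 among all probes), with -3.13 and -1.88 on designs 026655 and 028005.

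Fgfr3, a receptor best known for restraining bone growth, also fell. Its brightest probe read -0.55, -0.03 and 0.62 on wound replicates 1, 2 and 3, against 1.50, 1.97 and 2.33 on skin replicates 1, 2 and 3. All wound arrays were below all skin arrays, and the fall was 3.79-fold (log2 -1.92, SE 0.22, 95% interval -2.46 to -1.38, limma adjusted p = 0.00122). It was -2.03 on design 026655 and -1.71 on design 028005. A second probe gave -1.41 (SE 0.19, adjusted p = 0.00282 among all probes), and a further probe was not above background by the scanner's criterion on any array. With the mean of all 3 probes the gene stood at -1.10 and kept its call (adjusted p = 0.00354).

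Fgfr4, the FGF receptor best known in liver for control of bile acid synthesis, was read by 2 probes that gave different results. The first read -3.16, -2.85 and 0.04 on wound replicates 1, 2 and 3, against 2.78, 2.19 and 4.19 on skin replicates 1, 2 and 3. The groups of this probe did not overlap, and its signal was lower by 33.0-fold in wound cells (log2 -5.05, SE 0.33, 95% interval -5.84 to -4.26, limma adjusted p = 0.000183 among all probes). The difference was -5.49 on design 026655 and -4.15 on design 028005, and this was the largest difference of any member probe tested. The second read 1.06, 1.50 and 1.08 on wound replicates 1, 2 and 3, against 1.41, 0.80 and 1.11 on skin replicates 1, 2 and 3. Here the groups overlapped and the difference was 0.10 (SE 0.23, 95% interval -0.45 to 0.66, adjusted p = 0.769 among all probes). The files assign both probes to the same RefSeq transcript. The gene-level rule took the second probe on design 026655 and the first on design 028005, so its value of -1.27 (SE 0.84, adjusted p = 0.294) mixes them and describes neither. With the mean of both probes Fgfr4 was -2.47 and called (adjusted p = 0.000568), and the same model on the authors' deposited table gave -2.53 (adjusted p = 0.000398). The count of 7 called members by those settings therefore includes Fgfr4 and leaves out Fgf2.

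The promoter of Fgfr4 is shown with the same marks, as the receptor whose probe had the largest difference.
Fgfr4, chr13:55152568-55152867, plus strand: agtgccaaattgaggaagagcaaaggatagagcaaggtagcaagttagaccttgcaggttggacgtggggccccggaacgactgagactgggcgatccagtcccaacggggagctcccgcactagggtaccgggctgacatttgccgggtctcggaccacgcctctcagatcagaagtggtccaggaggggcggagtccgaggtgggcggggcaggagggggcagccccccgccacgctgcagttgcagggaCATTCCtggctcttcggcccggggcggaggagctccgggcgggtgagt
Its capitals mark the only GGAATG match among the member windows, read on the opposite strand. That motif is in 14.7% of all windows.

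Most epithelial markers were also lower in the wound arrays, as Fgfr2, Fgfr3 and the first Fgfr4 probe were. Most dermal papilla and Schwann cell markers above were lower there too. Of 12 epithelial markers, 10 were called lower in wound cells (15.6% of all genes). Of these 10, Krt1, Cdh1, Dsp, Epcam and Krt15 were tested only through the skin arrays, where they are high. The summed level of the 12 was 4.51, 6.12 and 10.7 on wound replicates 1, 2 and 3. On skin replicates 1, 2 and 3 it was 18.4, 40.3 and 36.8. By this sum the wound arrays were all below the skin arrays. The sum is linear, so bright markers weigh most. Trp63, which was not called, was the brightest of the list on every wound array (log2 1.77, 2.39 and 2.99). Krt10 was the brightest on skin replicate 2 (4.74). The epithelial markers Krt1 and Cdh1 were not well above background on any wound array and were so on all 3 skin arrays. Esrp1, a splicing factor that makes the epithelial form of Fgfr2, stood at -1.01 (SE 0.18, adjusted p = 0.00753), while Esrp2 and Trp63 did not pass (-0.68 and -0.27, adjusted p = 0.386 and 0.374). The part of epithelial RNA in these receptor results was not tested. Of the remaining marker lists, 2 of 6 endothelial markers were called higher, 2 of 4 melanocyte markers lower and 1 of 6 fibroblast markers (Pdgfra) lower. Of 2 adipocyte markers 1 was higher, and of 3 skeletal muscle markers 1 was higher and 1 lower. The endothelial marker Emcn was tested only through the wound arrays, and the muscle marker Pax7 only through the skin arrays, where each is high. Among all genes 18.5% were called higher and 15.6% lower. By limma 0 of 8 leukocyte markers were called, and 3 of them had an unadjusted p under 0.05, 2 higher and 1 lower.

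The FGF pathway beyond the 10 genes was described through 6 lists. Of 91 genes on them 78 were tested, and 18 were called higher and 14 lower, a share of 41.0% against 34.1% of all genes. Their median difference was 0.10. The balance of directions turned with the scaling, to 14 higher and 16 lower with quantile normalization and 15 higher and 16 lower when scaled to detected probes. Without wound replicate 1 the count of 32 called genes was 21.

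Among the other ligands 10 of 16 were tested, with 2 called higher, 1 lower and a median of 0.04. That is 30% called, against 34.1% of all genes. Fgf1, acidic FGF, which can bind all FGF receptors, rose by 2.59 (SE 0.28, adjusted p = 0.000981). It read 0.30, 0.06 and 1.70 on wound replicates 1, 2 and 3, against -1.99, -3.01 and -0.71 on skin replicates 1, 2 and 3, without overlap. A second Fgf1 probe was well above background on 1 array of each group and was not tested. Fgf21, an endocrine FGF of metabolism, stood at 2.24 (SE 0.56, adjusted p = 0.0253), and its groups overlapped when the designs were pooled. It was well above background on 3 of 3 wound arrays and 2 of 3 skin arrays. Fgf21 was therefore tested only through the group where it is high. Fgf12, an intracellular relative of Fgf13, fell. Its brighter probe was well above background on 0 of 3 wound arrays, so it was tested only through the skin arrays. The fitted difference was -2.18 (SE 0.38, adjusted p = 0.00645), and the groups overlapped when the designs were pooled. A lower bound on the fall, 3.17-fold, replaced wound values under the lowest signal of any detected probe on the array with that signal. A second Fgf12 probe, well above background on 1 of 3 wound arrays, gave -2.54 (adjusted p = 0.0102 among all probes).

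Co-receptors and binding proteins, which hold FGFs at the cell surface or pass them on, were split, with 5 of 17 higher, 7 lower and a median of 0.04. That is 70.6% called, against 34.1% of all genes. The heparan sulfate proteoglycan Gpc1 rose by 3.24 (SE 0.21, adjusted p = 0.000153) and the syndecan Sdc1 by 2.11 (SE 0.17, adjusted p = 0.000331). Gpc6 rose by 1.44 (SE 0.22, adjusted p = 0.00369). The basement membrane proteoglycan Hspg2 rose by 1.28 (SE 0.33, adjusted p = 0.0281), with 1.73 on design 026655 and 0.39 on design 028005 and with overlapping groups. Another syndecan, Sdc4, fell by 1.69 (SE 0.15, adjusted p = 0.000453). Fgfbp1, a carrier that frees FGFs from the matrix, was well above background on 1 of 3 wound arrays and stood at -1.51 (SE 0.18, adjusted p = 0.00147). It was tested only through the skin arrays, where it is high. The receptor-binding membrane proteins Flrt2 and Flrt1 stood at -1.44 and -1.34 (adjusted p = 0.00179 and 0.0112), and of the other Flrt1 probes 1 gave -1.41 (adjusted p = 0.00257 among all probes) and 1 gave -0.19 and did not pass (adjusted p = 0.693).

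Enzymes that build and trim heparan sulfate had 4 of 12 members higher, 1 lower and a median of 0.31. That is 41.7% called, against 34.1% of all genes. Sulf1, a sulfatase that removes sulfate groups which FGFs bind, rose by 3.17 (SE 0.21, adjusted p = 0.000178), and its second probe gave 3.13. The sulfotransferase Hs6st2 rose by 1.83 and the chain-building enzyme Ext1 by 1.54, whereas Ndst3 fell by 1.41 (adjusted p = 0.00142).

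Adaptors and the MAP kinase relay had 3 of 21 members higher and 2 lower, which is 23.8% called, against 34.1% of all genes. Frs3, an adaptor that docks on FGF receptors, was well above background on 2 of 3 wound arrays and stood at -1.32 (SE 0.25, adjusted p = 0.00894). It too was tested only through the skin arrays, where it is high. Its relative Frs2, chosen after its value was seen, did not pass (0.21, SE 0.15, adjusted p = 0.302). Of 10 feedback and response genes 2 were called higher and 3 lower, and the median was -0.33. That is 50% called, against 34.1% of all genes. Spry2, a feedback inhibitor of receptor signalling, rose by 1.29 (SE 0.22, adjusted p = 0.00620), and its relative Spry1 fell by 1.06 (SE 0.18, adjusted p = 0.00552). The transcription factor Etv1 and the membrane inhibitor Il17rd fell by 1.36 and 1.21 (adjusted p = 0.00125 and 0.00247). Dusp6, the phosphatase widely used as a readout of FGF signalling and chosen after its value was seen, did not pass (0.17, SE 0.23, adjusted p = 0.614). Of 8 sodium channel genes and partners of the intracellular FGFs, 2 were called higher and 0 lower, a share of 25% against 34.1% of all genes. Scn11a stood at 2.17 (SE 0.30, adjusted p = 0.00256). It was well above background on 3 of 3 wound arrays and 1 of 3 skin arrays, so it was tested only through the group where it is high.

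**Figure D3:**
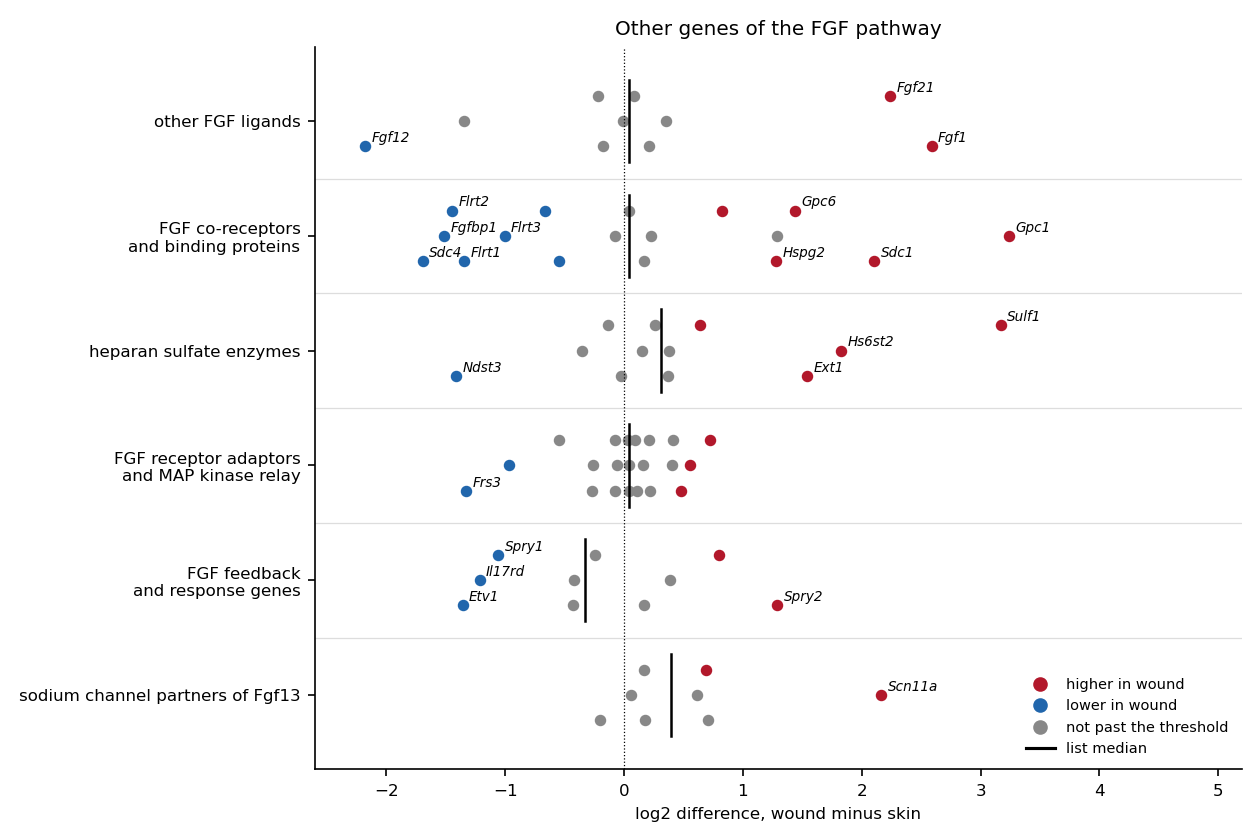
Log2 difference, wound minus skin, of the 78 tested genes on 6 FGF pathway lists, 1 point a gene, with a line at each list's median. Red and blue points were called higher and lower in wound cells at an adjusted p under 0.05, and called genes of at least 2-fold are named. Gpc1 and Sulf1 lie farthest to the right, and Fgf12 farthest to the left.

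Genes whose pattern over the 6 arrays was most like that of a member were found by the root mean square distance of log2 values after removal of each design's mean. Nearest to Fgf18 were Pde10a, Pdgfb and Pcdh17, at distances of 0.069, 0.070 and 0.089. Their differences were 2.01, 2.15 and 2.06. Nearest to Fgf10 were Alpl, Prlr and Jph4, at 0.097, 0.119 and 0.135, with differences of -2.97, -3.12 and -2.76. Alpl is also on the dermal papilla list above. Genes at a small distance must have a similar difference, so the likeness of these differences comes from how the genes were picked.

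Calls for Fgf10, Fgf13, Fgf18, Fgfr2 and Fgfr3 held under all 18 alternatives with a test. These alternatives are not independent checks. Design 026655 alone, without wound replicate 3 and without skin replicate 3 gave the same differences. Some others changed only the error, the filter or the threshold. The range was -3.10 to -2.26 for Fgf10, -2.93 to -1.56 for Fgf13 and 1.91 to 2.21 for Fgf18. For Fgfr2 it was -2.31 to -1.56 and for Fgfr3 -2.04 to -1.10.

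**Figure D4:**
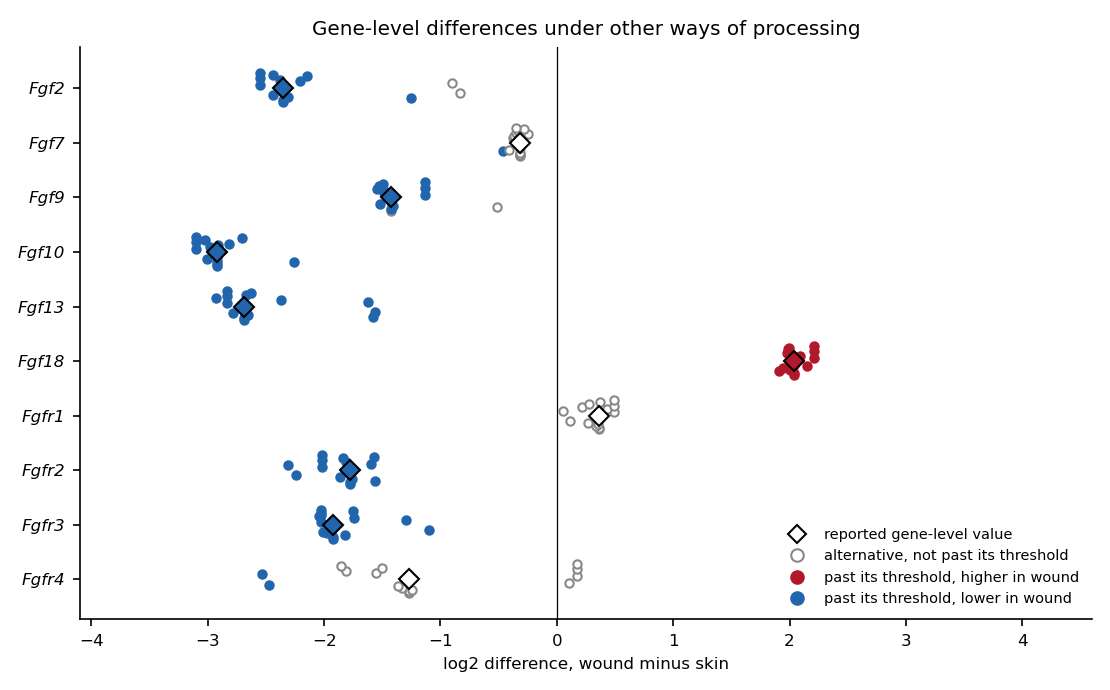
Gene-level log2 difference, wound minus skin, of the 10 members as reported (diamonds) and under 18 alternatives each with a test, 17 for Fgf9 (circles). Fgf9 was not tested when detection on all 6 arrays was required. Filled marks passed their threshold and open marks did not. Fgf18 stays above 0 with its call and Fgf10, Fgf13, Fgfr2 and Fgfr3 stay below it with their calls, Fgf2 and Fgf9 lose theirs under 2 settings each, and Fgfr4 crosses 0 with the choice of probe.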

How the data were processed

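RNA of 3 wound and 3 skin samples was read on 1-colour Agilent arrays. Per the series' design text, about 50 ng of RNA was amplified. Each deposited scanner file gives spot intensity on a linear scale, extracted by the authors with Feature Extraction 10.7.3.1 on mouse build mm9, per the file headers. The design text names a human array, whereas the file headers name a mouse build. The authors' deposited table was made in GeneSpring 14.5 as 1 gene-level set from the 2 designs, per the labels. The scale of this deposited table is unstated, and was taken as log2 because its array differences matched those of the scanner values with slopes of 1.00, 1.00 and 0.976. Its column medians are -0.28, -0.27 and -0.23 for wound and -0.21, -0.25 and -0.25 for skin replicates 1, 2 and 3. How it combines probes is not given in the labels.

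Control and outlier spots were left out and spots of a probe averaged. Processed signals were taken as log2 minus the array's 75th percentile. Probes were named through the authors' table (27773 on each design) or RefSeq accessions. Each gene was read, on each design, from its probe of highest mean log2 value, the same on both designs for 97.0% of genes. Genes well above background on all arrays of a group were tested with lmFit and eBayes of limma 3.58.1 (R 4.3.3), wound against skin, with the array design, also slide and scan, as a term. The moderated fit had 6.25 degrees of freedom. Normexp used the median spot signal, since the files hold no mean signal. Members and lists were chosen with earlier results of these data known. Named genes are all members, the called pathway genes of at least 2-fold (up to 4 per list and direction) and the 3 nearest in pattern to the most increased and most decreased member.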

Additional observations from a re-analysis of the deposited data

How the results depend on the processing

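The count of called members was 7 as reported and 6 to 8 under every alternative, 7 without each array in turn, and the count of member probes was 11 as reported, 9 to 11 under every alternative and 11 without each array. With no array design term 1762 genes in all and 8 pathway genes were called, against 5701 and 32. At an adjusted p under 0.01 the counts were 3195 and 19. Leaving out each array in turn gave 3751 to 4931 genes, the lowest without skin replicate 1, and 21 to 25 pathway genes, the lowest without wound replicate 1. Arrays sharing a replicate number are not known to be paired: replicate 3 carries no number in the labels, and the deviations of replicates 1 and 2 correlated at 0.15 across genes. With the replicate block 5604 genes, 7 members, 30 pathway genes and 11 member probes were called. The gene-level value of Fgfr4 turned to 0.10 with the same brightest probe on both designs and to 0.17 on design 026655 alone, without wound replicate 3 and without skin replicate 3, because the choice of probe differs between designs; without each array in turn it ran from -1.86 to 0.17. The second Fgfr4 probe, at 0.10 and not called as reported, stood at -0.04 without wound replicate 2, and without each array in turn it ran from -0.091 (without skin replicate 2) to 0.26. Scaling to detected probes moved the median of all genes by -0.09. Fgf9 was well above background on 2 of 3 wound arrays, and the cause of its lost calls was not tested.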
